A study of Homo sapiens with 8 samples.

Results

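The genes described here serve antigen presentation by major histocompatibility complex (MHC) class I. They are the heavy chain genes HLA-B, HLA-C, HLA-E and HLA-F, the light chain gene B2M, the peptide transporter genes TAP1 and TAP2, the loading factor gene TAPBP and the transactivator gene NLRC5. Their rows were taken from the deposited expression table by gene symbol. The list of genes itself was chosen with earlier results of these data known. Of the 9 genes, 6 had a row among the 25603 genes of the table. HLA-F, TAP1 and TAP2 had no row under their symbol or their Ensembl gene identifier, and the table could not be used for these 3.

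Transcripts of HepG2, a widely used line derived from a human hepatocarcinoma, were sequenced in order to define the transcriptional effect of blocking EZH1 and EZH2. These enzymes belong to polycomb repressive complex 2 and methylate lysine 27 of histone H3. The EZHi group of 4 libraries came from cells given UNC1999 and valemetostat tosylate together, each at 1 µM, for 4 days, and the other 4 libraries came from cells given DMSO alone (vehicle), at 0.2% per the labels. All libraries shared William's E medium with 10% serum, 2 mM glutamine, 20 mU/ml insulin and 50 nM dexamethasone, and were made from mRNA and read as paired 150 bp reads. Because both inhibitors were given together to a single cell line, the contribution of each compound cannot be told apart. The libraries of a group are described in the study as independent biological replicates, which the labels do not state.

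On the surface of nearly all nucleated cells, a class I heavy chain and the light chain beta-2 microglobulin hold a short peptide cut from proteins of the cell, which CD8 T cells inspect. Peptides are cut by the proteasome, carried into the endoplasmic reticulum by the TAP1-TAP2 transporter and loaded with the help of tapasin, the product of TAPBP. NLRC5 switches on class I genes together with factors bound to their promoters, and interferons raise most genes of the pathway. The liver is known for low class I levels on resting hepatocytes, and in several cancers polycomb repression has been described at class I genes.

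Expression is given as length-corrected values on a log2 scale, in which a difference of 1 is a 2-fold change. To compare levels between genes, the values were also expressed as an estimated FPKM (fragments per kilobase of transcript, relative to the total). Read depth is unknown, because the values had been scaled before deposition. The hepatocyte origin of the line was visible in its markers: all 9 hepatocyte genes examined were measured, with an estimated FPKM of 16199 for AFP and 10106 for ALB. EZH1 and EZH2, the targeted enzymes, differed by -0.07 and -0.06 on the log2 scale, neither called. The inhibitors act on the activity of these proteins, so their mRNA does not check the treatment.

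The positions of the 9 genes were compared with those of sequences that the reference holds more than once. HLA-F (chr6:29722775-29738528, + strand, hg38), HLA-E (chr6:30489509-30494194, + strand), HLA-C (chr6:31268749-31272130, - strand), HLA-B (chr6:31353872-31367067, - strand), TAP2 (chr6:32821833-32838739, - strand), TAP1 (chr6:32845209-32853816, - strand) and TAPBP (chr6:33299694-33314284, - strand) lie in the MHC of chromosome 6. B2M lies on chromosome 15 (chr15:44711358-44718851, + strand) and NLRC5 on chromosome 16 (chr16:56989485-57083531, + strand). The hg38 reference file used here holds 261 alternative contigs, which repeat stretches of the chromosomes in another sequence version, and 16 of them belong to chromosome 6. Exons of each gene were therefore divided into windows of 75 bases, at a step of 25 bases, and each window was looked up letter by letter on both strands of these contigs.

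The 6 windows printed here, all from coding exons, show what such copies are. For each gene, the window printed is the one nearest the middle of its coding sequence among those with the median number of contigs, and no letters are in capitals because each window was looked up as a whole. The windows are given 5′ to 3′ in the direction of transcription. They lie at chr6:31356242-31356316 for HLA-B, chr6:31271143-31271217 for HLA-C, chr6:30490365-30490439 for HLA-E, chr6:32850984-32851058 for TAP1, chr15:44715523-44715597 for B2M and chr16:57026273-57026347 for NLRC5.
HLA-B: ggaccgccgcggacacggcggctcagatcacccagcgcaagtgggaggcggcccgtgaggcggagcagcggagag
HLA-C: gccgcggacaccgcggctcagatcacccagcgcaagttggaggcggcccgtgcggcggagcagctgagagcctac
HLA-E: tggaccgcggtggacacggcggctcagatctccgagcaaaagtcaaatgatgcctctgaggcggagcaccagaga
TAP1: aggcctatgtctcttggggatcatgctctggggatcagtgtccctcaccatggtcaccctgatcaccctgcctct
B2M: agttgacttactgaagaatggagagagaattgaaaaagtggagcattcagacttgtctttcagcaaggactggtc
NLRC5: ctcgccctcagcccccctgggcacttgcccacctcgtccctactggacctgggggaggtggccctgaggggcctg
The HLA-E window stood unaltered on 6 alternative contigs and the TAP1 window on 7. The HLA-C and B2M windows each stood on 1 contig, and the HLA-B and NLRC5 windows stood on 0. Over the coding sequence alone, copies were found for 37.4% of windows in HLA-B, 89.4% in HLA-C, 100% in HLA-E, TAP1 and B2M, and 0% in NLRC5.

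Over all exon windows, the share with an exact copy was 100% for HLA-E, TAP1 and TAPBP, 99.2% for TAP2 and 93.9% for HLA-F. It was 91.1% for B2M, 84.6% for HLA-C and 60.8% for HLA-B, the heavy chain gene with the lowest share. NLRC5 had a share of 0% over 361 windows, and was the only one of the 9 genes with no copy. The median number of contigs that held a window was 7 for TAP1 and TAP2, 6 for HLA-E, 5 for HLA-F, 4 for TAPBP, and 1 for HLA-B, HLA-C and B2M.

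Levels in the MHC were low well beyond the class I genes. The MHC interval was taken as the stretch covered by protein-coding genes starting within 5 Mb of HLA-B and having at least 50% of their windows copied (chr6:28525881-33457544, 4.932 Mb). Of 182 protein-coding genes in it, 66 (36.3%) had a row and 6 (3.30%) reached an estimated FPKM of 1. On the rest of chromosome 6, 80.6% of 868 genes had a row and 54.0% reached that level. These 6 genes had estimated FPKM values between 1.037 and 5.77, and none of the members in the interval was among them.

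**Figure D1:**
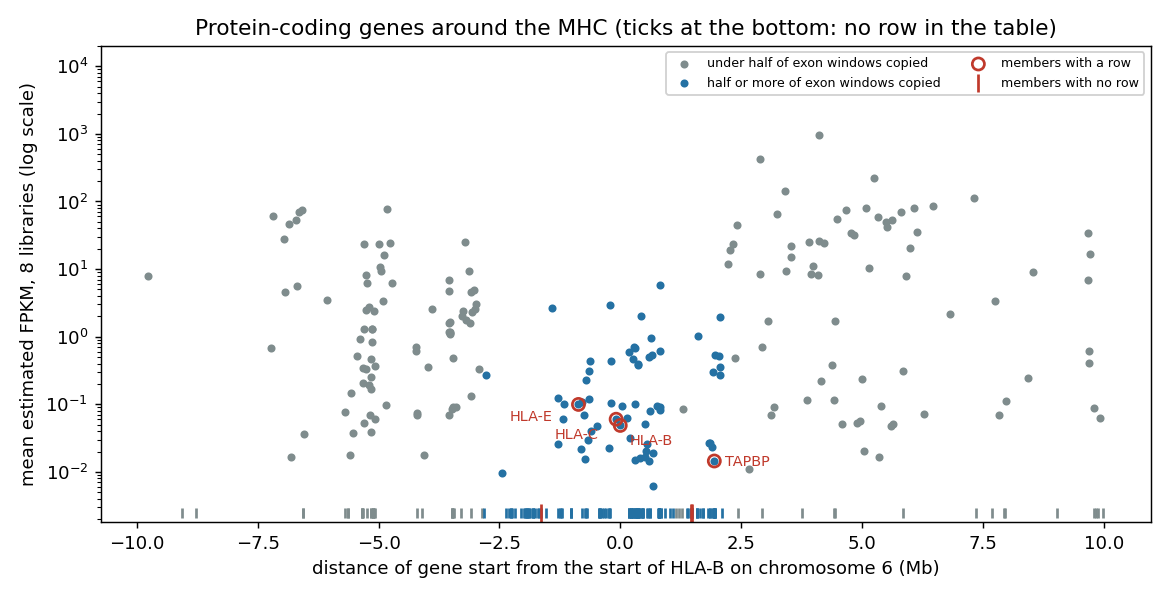
Mean estimated FPKM over 8 libraries (log scale) of protein-coding genes against the distance of their start from the start of HLA-B in Mb, with genes coloured by whether at least 50% of their exon windows have an exact copy on an alternative contig, and ticks at the bottom for genes with no row. Red circles mark HLA-B, HLA-C, HLA-E and TAPBP, all under 0.1, and red ticks mark HLA-F, TAP1 and TAP2, with no row.

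The same was seen for copied genes elsewhere. Outside the interval, 632 protein-coding genes had at least 50% of their windows copied, of which 40.5% had a row and 14.6% reached an estimated FPKM of 1. For the 19225 genes with fewer windows copied, these shares were 79.0% and 57.3%. Where the median window stood on 1 contig, as for B2M, 17.2% of 482 genes reached an estimated FPKM of 1, and where it stood on 2 or more contigs, as for the TAP genes, 6.12% of 147 genes did. Cytosolic ribosomal protein genes, looked at after their values were seen, had a median estimated FPKM of 827 over 74 genes with few or no copies, whereas RPS9 and RPS18, with at least 94.9% of windows copied, were listed at 1.31 and 0.300. Copied genes were not always low: SERPINA1 (90.2% of windows copied) had an estimated FPKM of 1410, and IFNGR2 (92%) had 11.1. Per the methods of the study, reads with an alignment quality under 10 were not counted, and genes with fewer than 10 reads over all samples were removed. Whether the index used for mapping held the alternative contigs is not given in the sources used here, and the part of these copies in the values of the class I genes was not tested.

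**Figure D2:**
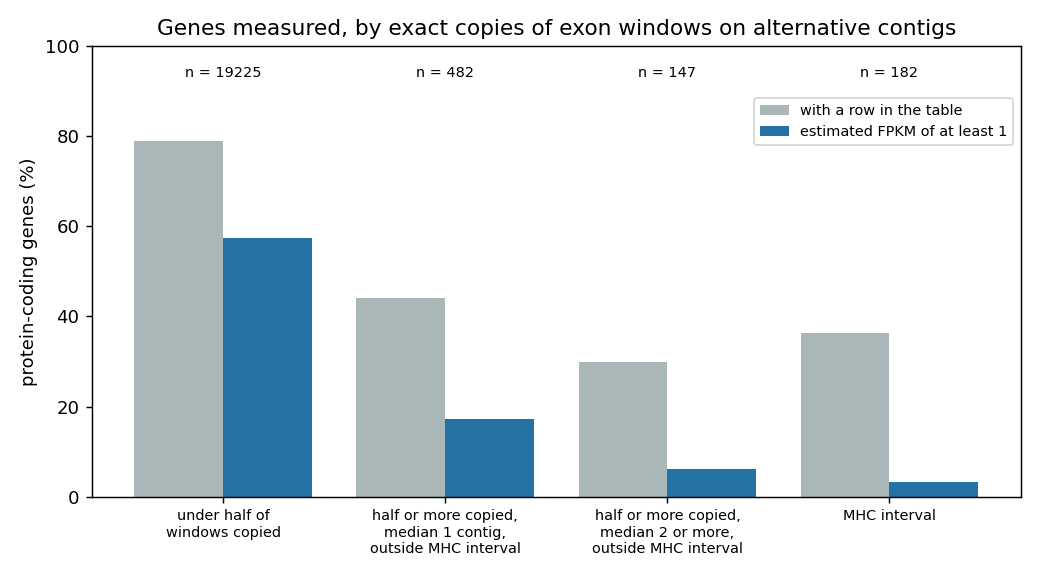
Percentage of protein-coding genes with a row in the table (grey bars) and with an estimated FPKM of at least 1 (blue bars), by the copying of their exon windows on alternative contigs of hg38. Bars are lowest for the MHC interval and for genes held by 2 or more contigs, where 3.30% and 6.12% of genes reach an estimated FPKM of 1, against 57.3% of genes with fewer windows copied.

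The first question of the comparison was whether EZHi changed the heavy chains, which carry the peptide. HLA-B, a classical heavy chain gene (ENSG00000234745), had log2 values of 0.26, 0.18, 0.19 and 0.10 in vehicle libraries 1 to 4 and of 0.45, 0.25, 0.58 and 0.45 in EZHi libraries 1 to 4. The EZHi libraries were higher than the vehicle library of the same number in all 4 pairs, by 0.0731 to 0.392, but EZHi library 2 lay below vehicle library 1, so that the groups overlapped. The mean over the 8 libraries corresponds to an estimated FPKM of 0.0487, or about 2.60 normalised reads per library. Normalised reads are back-calculated from the values and are not counted reads. In bulk RNA, fewer cells that express a gene and less of its RNA per cell cannot be told apart, here and for the genes that follow.

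HLA-C, the other classical member (ENSG00000204525), was listed at 0.75, 0.67, 0.54 and 0.46 with vehicle and at 0.79, 0.46, 0.61 and 0.67 with EZHi. HLA-E, a non-classical heavy chain that presents leader peptides to natural killer cells (ENSG00000204592), was listed at 1.51, 1.08, 1.40 and 1.25 with vehicle and at 1.16, 1.24, 1.68 and 1.37 with EZHi. For both genes the ranges of the groups lay largely on each other, and EZHi was higher in 3 of 4 pairs. Their estimated FPKM was 0.0601 for HLA-C and 0.0995 for HLA-E, or about 1.93 and 3.55 normalised reads per library. HLA-F, a further non-classical heavy chain gene, had no row. At this level the regularised log used by the authors pulls values of a gene together, so a change of these heavy chains may not be detectable.

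None of these 3 heavy chain genes reached the mean estimated FPKM of 0.1 required for testing, and only 2 of the 9 members, B2M and NLRC5, did. When all 25603 genes were fitted without that filter, the difference between EZHi and vehicle (log2, limma) was 0.25 for HLA-B (SE 0.070, 95% interval 0.088 to 0.408, adjusted p = 0.057). For HLA-C it was 0.03 (SE 0.086, 95% interval -0.168 to 0.223, adjusted p = 0.888), and for HLA-E 0.05 (SE 0.130, 95% interval -0.244 to 0.347, adjusted p = 0.859). In this fit 8.28% of all genes were called higher, meaning an adjusted p under 0.05, and 3.15% lower, against 0 of the 6 members with a row. When the replicate number was added as a block, HLA-B became the only one of the 6 to be called (adjusted p = 0.0457), with 12.3% of all genes called higher and 9.55% lower. HLA-B therefore rose in 1 of these fits, on about 2.60 normalised reads per library, and this call did not stand without the block.

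Other class I heavy chain loci gave little to compare with. HLA-G, HLA-J, HLA-K and HLA-L had no row, and HLA-H was listed at an estimated FPKM of 0.0298.

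B2M encodes the light chain shared by all class I molecules (ENSG00000166710). Its log2 values were 10.23, 10.33, 10.55 and 10.35 in the vehicle libraries and 10.59, 10.47, 10.70 and 10.39 in the EZHi libraries. Vehicle library 3 lay above EZHi libraries 2 and 4, so the groups overlapped, yet EZHi was higher in each of the 4 pairs, by 0.0352 to 0.363. With an estimated FPKM of 55.0, B2M was the highest of the members, followed by NLRC5 at 13.5 and then, far below, by HLA-E, HLA-C, HLA-B and TAPBP.

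The mean of B2M was 10.37 ± 0.13 (SD, n = 4 libraries) with vehicle and 10.54 ± 0.14 with EZHi. The difference of 0.17 (SE 0.091, 95% interval -0.031 to 0.375) did not pass the test across 20153 genes (limma, adjusted p = 0.267). B2M was likewise not called in any of 16 alternative fits, where its difference ran from 0.117 to 0.286 and its adjusted p from 0.051, with the replicate block, to 0.494. A rise of more than 0.375 on the log2 scale lies outside the interval of the fit by group. All 41 windows of its coding sequence have a copy on 1 contig, and the part of this copy in the level of B2M was not tested.

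Peptide transport and loading could be followed only through TAPBP, whose product tapasin bridges the heavy chain and the transporter. TAPBP (ENSG00000231925) was listed at -1.52, -1.44, -1.52 and -1.44 with vehicle and at -1.30, -1.44, -1.29 and -1.52 with EZHi. EZHi libraries 1 and 3 lay above every vehicle library, whereas EZHi library 4 was the lowest value of all. With an estimated FPKM of 0.0145, or about 1.00 normalised read per library, TAPBP was the lowest of the 6 members with a row, and its difference of 0.09 (SE 0.054, 95% interval -0.031 to 0.214) did not pass the test without a filter (limma, adjusted p = 0.339). TAP1 and TAP2, the subunits of the transporter, had no row, so this step of the pathway was not measured.

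NLRC5 encodes the transactivator of class I genes (ENSG00000140853) and had no copied window. It was listed at 8.45, 8.39, 8.22 and 8.56 with vehicle and at 8.46, 8.64, 8.13 and 8.51 with EZHi. Library 3 was the lowest of its group in both, and EZHi was higher in 2 of 4 pairs. The means were 8.41 ± 0.15 (SD, n = 4) and 8.44 ± 0.22, and the difference of 0.03 (SE 0.118, 95% interval -0.235 to 0.293) did not pass the test (limma, adjusted p = 0.914). The difference changed its sign when vehicle library 3 (-0.0341) or EZHi library 2 (-0.0377) was left out.

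By limma with group as the only term, 0 of the 2 tested members were called, and 0 had an unadjusted p under 0.05. In that fit 8.85% of all tested genes were called higher and 4.27% lower. Under the replicate block the shares were 14.9% higher and 15.1% lower, and again 0 of the 2 members were called, though B2M had an unadjusted p of 0.0154 in that fit. Neither B2M nor NLRC5 was called under any of the alternative scalings, filters or left-out libraries.

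**Figure D3:**
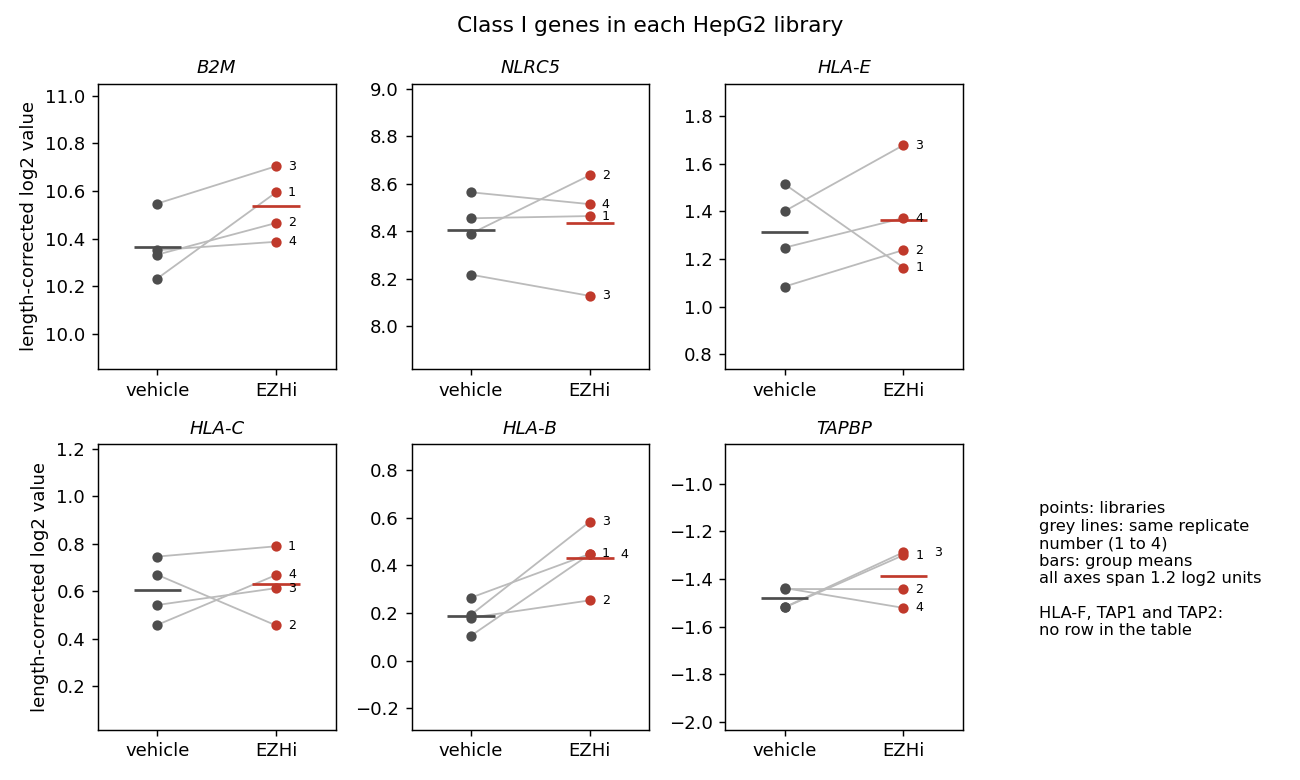
Length-corrected log2 value of each member with a row, in 4 vehicle (grey) and 4 EZHi (red) libraries, with lines joining libraries of the same replicate number, bars for group means and all axes spanning the same range. The groups overlap in every panel, and B2M and HLA-B are higher with EZHi in all 4 pairs.

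The 5 tested genes whose values followed B2M most closely were FAM149B1, SMIM20, UGGT2, BEX5 and MIR186. Likeness was measured as the root mean square difference between log2 values over the 8 libraries, each gene being centred on its own mean. It was 0.0352 for FAM149B1, 0.0418 for SMIM20, 0.0436 for UGGT2, 0.0501 for BEX5 and 0.0531 for MIR186. None of the 5 genes was called between groups (limma, adjusted p between 0.240 and 0.388). MIR186 is a short precursor RNA, for which values from an mRNA library are uncertain.

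The genes around the class I pathway were then counted, in lists that group them by role. Over all tested genes, 8.85% were called higher and 4.27% lower by group alone. With the replicate block these shares were 14.9% and 15.1%. For the supply of peptides, the immunoproteasome subunit PSMB10, the proteasome activator subunits PSME1 and PSME2, and the trimming peptidases ERAP1 and ERAP2 were tested, and 0 of these 5 were called. PSMB10 had the largest difference, -0.25 (SE 0.111, limma, adjusted p = 0.181), with means of 6.77 for vehicle and 6.52 for EZHi. The other immunoproteasome subunits, PSMB8 and PSMB9, lie beside the TAP genes, had 100% of their windows copied and had no row. Of their constitutive counterparts PSMB5, PSMB6 and PSMB7, 0 of 3 were called by group alone, whereas PSMB6 (-0.21, adjusted p = 0.0122) and PSMB7 (-0.14, adjusted p = 0.040) were called lower by limma with the replicate block.

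None of the chaperones that fold and load class I molecules was called. CALR (calreticulin) had an estimated FPKM of 1042, PDIA3 of 322, CANX (calnexin) of 277 and TAPBPL, a relative of tapasin, of 6.16. Their differences ran from -0.06 to 0.10 on the log2 scale, and 0 of 4 were called with or without the block. These 4 genes have almost no copied windows, in contrast to TAPBP, TAP1 and TAP2, with which CALR and PDIA3 form the peptide-loading complex.

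Among class I-like molecules, 11 of 13 had a row and 5 were tested. Of these 5, 1 was called higher, against 8.85% of all tested genes. ULBP3, a ligand of the activating receptor NKG2D, rose with EZHi. Its values were 3.44, 3.47, 2.98 and 3.01 with vehicle and 4.41, 4.11, 4.25 and 4.44 with EZHi, so that every EZHi library lay above every vehicle library. The difference was 1.07 (SE 0.143, limma, adjusted p = 0.000898), at an estimated FPKM of 0.571. With the replicate block, AZGP1, which resembles a heavy chain and is secreted (0.39, adjusted p = 0.00043), HFE, a regulator of iron uptake that binds beta-2 microglobulin (0.20, adjusted p = 0.0369), and FCGRT, the heavy chain of the neonatal Fc receptor (0.17, adjusted p = 0.0463), were called higher by limma as well. With ULBP3 this made 4 of 5 called higher in the block fit, against 14.9% of all tested genes. The call of FCGRT was lost in the block fit without a filter (limma, adjusted p = 0.0795). In fits by group alone, the difference of AZGP1 fell to 0.257 and that of FCGRT to 0.0933 without vehicle library 2, to 0.264 and 0.110 without EZHi library 3, and that of HFE to 0.123 without vehicle library 4. The NKG2D ligands MICA and MICB, within the MHC interval and copied over at least 96.3% of their windows, were listed at an estimated FPKM of 0.0954 and 0.0632 and were not tested.

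All 22 promoter-binding factors and interferon pathway regulators were tested, with 0 called higher and 2 lower. Over all tested genes, 8.85% were called higher and 4.27% lower in that fit. STAT2, a transducer of type I interferon signals, fell by 0.32 on the log2 scale (SE 0.070, limma, adjusted p = 0.0153), from values between 8.98 and 9.20 to values between 8.69 and 8.78. This call was lost without EZHi library 4 (adjusted p = 0.052) and when libraries were aligned on well-expressed genes only, at 10 or more estimated FPKM (adjusted p = 0.0736). RELA, a subunit of NF-kB, fell by 0.25 (SE 0.068, limma, adjusted p = 0.0407), and that call was lost in each of the 8 fits that left out a library (-0.2768 to -0.2045), under quantile scaling (adjusted p = 0.272) and when aligned on well-expressed genes (adjusted p = 0.220). RFX5, RFXAP and RFXANK, which form the RFX complex that NLRC5 works with, differed by 0.06, -0.17 and -0.05 and were not called. IRF1, an activator of class I genes in the interferon response, differed by -0.15 (limma, adjusted p = 0.458). The median of the 22 differences was -0.08, against -0.0077 over all tested genes. With the replicate block the list held 1 called higher, NFYA, and 5 called lower, with IRF2, NFKB1 and IFNGR1 beside STAT2 and RELA. The shares over all tested genes were then 14.9% higher and 15.1% lower. The call of NFYA was lost when the block was fitted without a filter (adjusted p = 0.0666).

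Targets of interferon, in which class I genes are usually counted, leaned upward but did not all move in a single direction. Of 23 genes, 18 had a row and 13 were tested. In the fit by group, 4 were called higher and 1 lower, against 8.85% and 4.27% of all tested genes. Differences were positive for 10 of the 13, with a median of 0.34, against -0.0077 over all tested genes. IFI6, a protein of mitochondria and the endoplasmic reticulum, rose from 6.24, 6.63, 6.45 and 6.53 with vehicle to 7.52, 8.16, 7.55 and 7.86 with EZHi (difference 1.31, SE 0.153, limma, adjusted p = 0.000397). IFIT3 rose by 1.05 (adjusted p = 0.00268), IFIT1 by 0.89 (adjusted p = 0.000577), both of the same family of RNA-binding antiviral proteins, and the GTPase gene GBP1 rose by 0.60 (limma, adjusted p = 0.00481). GBP2, another GTPase gene of that family, fell by 1.05 (SE 0.160, limma, adjusted p = 0.0020), from values of 6.42 to 7.07 with vehicle to values of 5.46 to 5.84 with EZHi. The groups did not overlap for IFI6, IFIT3, IFIT1, GBP1 and GBP2. These genes are named for their calls. The share of all tested genes without overlap was not counted, here or for other genes. On a log2 scale with 0.5 added to the estimated FPKM, the differences shrank to 0.52 for IFIT3, 0.31 for IFIT1 and 0.28 for GBP1, and to 0.55 for ULBP3, all still called.

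Several interferon targets gave no call. ISG15, a ubiquitin-like protein induced by interferon, differed by -0.05 (limma, adjusted p = 0.887) at an estimated FPKM of 15.96. The chemokine genes CXCL9 and CXCL10, and GBP4, GBP5 and IDO1, had no row although at most 5.66% of their windows were copied. With the replicate block, OAS1, OAS2 and OAS3 were called higher and SOCS1, an inhibitor of cytokine signals, lower. This made 7 higher and 2 lower of 13, against 14.9% and 15.1% of all tested genes. IFI44L, under the filter, was called higher in the fit by group without it (0.37, limma, adjusted p = 0.0487). It rested on about 3.40 normalised reads per library.

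Class II genes mostly had no row. Among those without a row, HLA-DRB1, HLA-DRB5 and HLA-DQA1 had at most 8.57% of their windows copied. Why they had no row was not tested. Of 13 genes, HLA-DQB1, CD74 and CIITA had a row, and 0 of the 2 tested were called. CD74, the invariant chain, differed by 0.27 (SE 0.092, limma, adjusted p = 0.0878) at an estimated FPKM of 87.8, and was called higher with the replicate block (adjusted p = 0.00749). CIITA, the class II counterpart of NLRC5, differed by 0.03 (limma, adjusted p = 0.945). HLA-DQB1, an antigen-binding chain, lay between 0.92 and 0.93 with vehicle and between 1.16 and 1.39 with EZHi, and, being under the filter, was fitted only without it, where it was called higher (0.33, limma, adjusted p = 0.0059), at an estimated FPKM of 0.0838 or about 3.31 normalised reads per library.

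**Figure D4:**
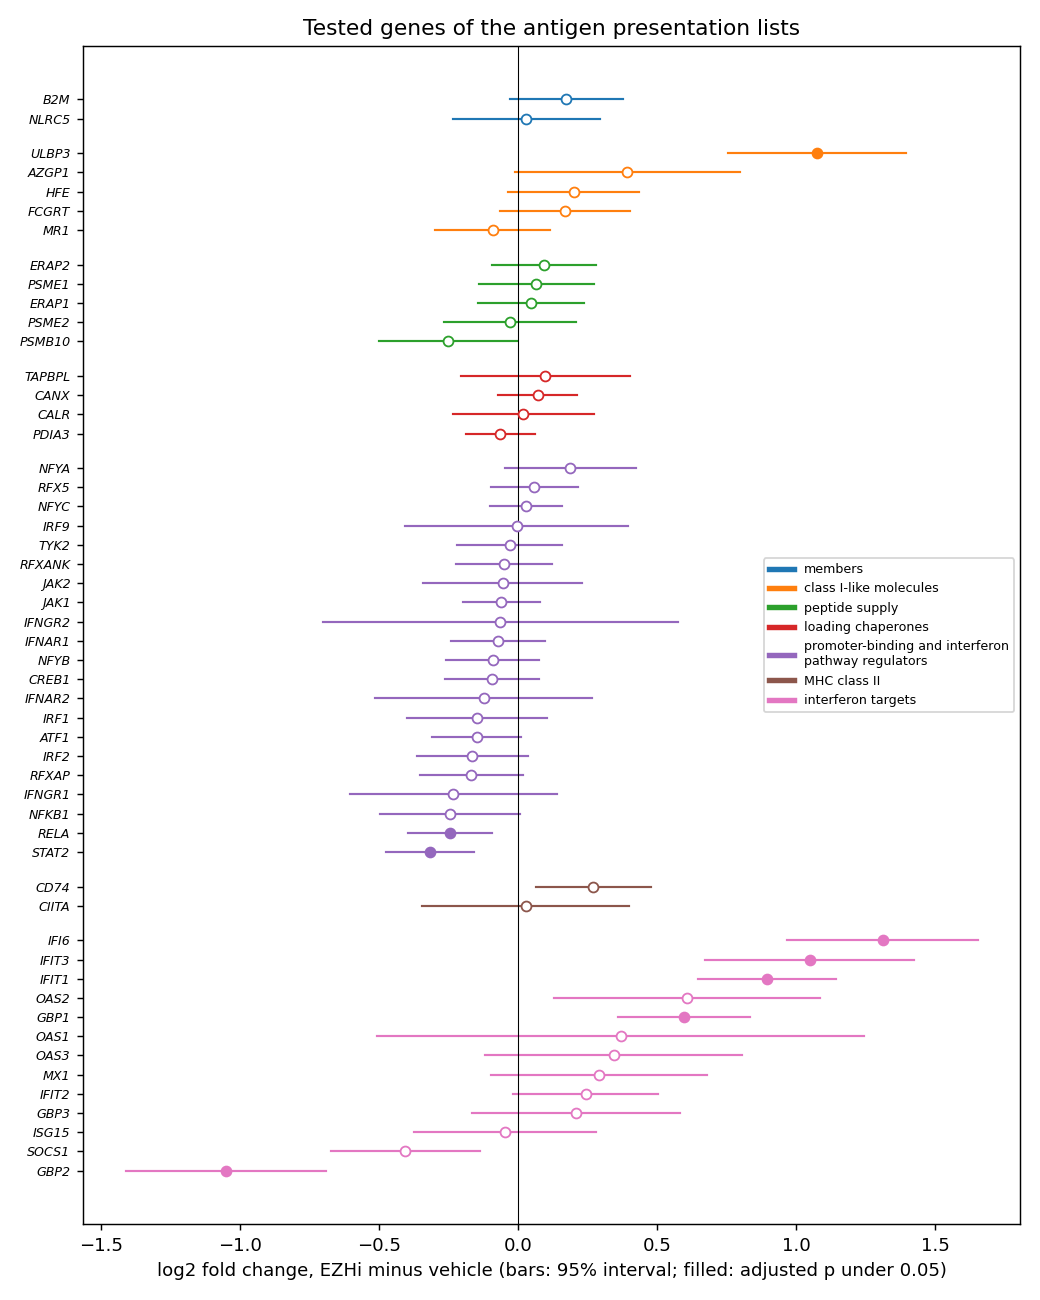
Difference in log2 value between EZHi and vehicle for the tested class I members and for tested genes of 6 lists around them, with 95% intervals from limma and filled circles for an adjusted p under 0.05. B2M and NLRC5 have open circles, as do all peptide supply and loading genes, while ULBP3, IFI6, IFIT3, IFIT1 and GBP1 lie to the right and GBP2, STAT2 and RELA to the left.

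Markers of other cells were examined beside these lists, since class I genes are high in leukocytes and endothelium. Of 6 leukocyte markers, PTPRC and CD68 had no row, CD3E was listed at an estimated FPKM of 0.0585, CD79A at 0.421, CD14 at 0.983 and LYZ, the lysozyme gene, at 1424. CD79A, CD14 and LYZ were tested and 0 of 3 were called. The shares called over all tested genes were 8.85% higher and 4.27% lower by group alone, and 14.9% and 15.1% with the replicate block. CD3E, under the filter, was called higher in the fit without it (0.37, limma, adjusted p = 0.00368) at about 2.15 normalised reads per library, and the groups did not overlap. Of the fibroblast markers 0 of 2 tested were called. The endothelial genes VWF (1.45, limma, adjusted p = 0.00537) and CDH5 (2.28, adjusted p = 0.00411) rose with EZHi at an estimated FPKM of 1.25 and 0.999, whereas PECAM1 differed by 0.04 (adjusted p = 0.867). With 0.5 added to the estimated FPKM, the differences were 0.99 for VWF and 1.32 for CDH5, both still called. Of the hepatocyte markers, 1 of 9 was called, the fibrinogen gene FGB, higher by 0.92 (limma, adjusted p = 0.00167), and with the replicate block APOA1 and APOB were called higher and ALB lower. The part of these changes in the values of the class I genes was not tested.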

How the data were processed

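Samples were grouped by their titles. According to the study's methods, the authors aligned reads to hg38 with HISAT2, counted exonic reads with HTSeq 0.9.1 without strand, applied the regularised log of DESeq2 and divided by mean transcript length. The deposited values are log2 values, from -6.815 to 19.009, although the table is named as FPKM, and the authors' transformation shrinks differences of low genes.

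Of 25604 rows, 1 repeat was dropped. Gene models came from GENCODE 44. Estimated FPKM was 2 to the power of the value, divided by a common scale and averaged over libraries. Normalised reads are 2 to the power of the value, times transcript length in kilobases. They are back-calculated from regularised values with GENCODE lengths and are not counted reads. For TAPBP, at about 1.00 in each of 8 libraries, they fall short of the authors' minimum of 10 reads over all samples. A mean estimated FPKM of 0.1 was required, which left 20153 genes. These were tested with limma 3.58.1 in R 4.3.3, with a trended prior and group alone in the model, and two-sided p-values were adjusted by Benjamini-Hochberg over every gene fitted.

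The study's methods state no pairing of libraries, so the main test took none into account and the replicate number entered only as an alternative. Deviations from group means correlated at 0.310, 0.558, 0.634 and 0.216 between libraries of the same number, 1 to 4. Between libraries of different numbers the correlations ran from -0.582 to 0.199, below each of the same-number values. For number 4 the same-number value (0.216) lay only slightly above the highest of these (0.199). The members and lists were chosen with earlier results of these data known. All members are named, with every called gene of the other lists, values for up to the 4 largest differences per list, and the 5 genes most like the tested member with the largest difference. Some genes of the lists are not reported here. Other genes are named by their role, after their values were seen. Alternatives were other scalings, filters, a pseudocount of 0.5, the replicate block and leaving out each library. The block without a filter was added after seeing the data.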

Additional observations from a re-analysis of the deposited data

Results flagged for a closer look

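STAT2 in vehicle library 3 stood at 9.201, away from the other vehicle libraries at 8.98 to 9.01. CD74 in EZHi library 1 stood at 10.99, below the other EZHi libraries at 11.32 to 11.39. Both were picked because their gap to the nearest other library made up 0.886 and 0.836 of the whole range, above Dixon's 95% critical value for 4 samples. These were 2 of 70 groups examined, of which chance alone would give about 3.5. No member of the class I list was among them.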

How the results depend on the processing

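The number of called genes, 2644 by group alone, was 6051 with the replicate block, which kept all 2644, 5584 with the block and no filter, and 1579 at an estimated FPKM of at least 1. In the lists around the class I pathway, 8 genes were called by group alone, 22 with the replicate block, 22 with the block and no filter, and 4 at an estimated FPKM of at least 1. Over all genes fitted, 8.85% were called higher and 4.27% lower by group alone, and 14.9% and 15.1% with the block. With the block and no filter these shares were 12.3% and 9.55%. Leaving out each library in turn gave 1811 to 2571 called genes, 6 to 9 in these lists and 0 members. Of the class I members, 0 were called in each alternative except 1, HLA-B, with the block and no filter. Only the fits without a filter included HLA-B, HLA-C, HLA-E and TAPBP. In all other alternatives, also those with left-out libraries, only B2M and NLRC5 could be called. The difference of NLRC5 ran from -0.0377 to 0.1314 over the left-out libraries, with a reversed sign in the absence of vehicle replicate 3 (-0.0341) or EZHi replicate 2 (-0.0377). The cause of these shifts was not tested, apart from the smaller number of genes tested under the stricter filter. Beyond the calls given above, the replicate block changed no other call among the genes named. For single genes named, 435 results kept their direction and side of the threshold over the alternatives, 41 passed it newly and 12 no longer passed it. Depth is unknown, and the 4 MHC members with a row correspond to about 1.00 to 3.55 normalised reads per library, which are back-calculated.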
